A study of Mus musculus with 9 samples.

Results

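The 10 genes described here belong to the NF-kB pathway. The transcription factor subunits are Nfkb1, Nfkb2, Rel and Relb. Nfkbia is an inhibitor, and Nfkbiz and Bcl3 are nuclear members of the same IkB family. Tnfaip3 and Birc3 encode feedback enzymes, and Cd83 a surface protein. The 10 genes were taken by symbol from the 31053 gene rows of the count matrices, and each symbol matched a single row. LSK cells, the Lin- cKit+ Sca1+ fraction of mouse bone marrow that holds the hematopoietic stem cells and the multipotent progenitors, were profiled by single-cell RNA sequencing with the 10x Genomics 3′ v3 chemistry. All 9 libraries came from C57BL/6 mice, and cells were frozen viably and thawed before sequencing. The 3 young samples (10 to 12 weeks) and the 3 aged samples (over 80 weeks) received the vehicle cyclodextrin, and the 3 CASIN samples were aged mice treated with CASIN, an inhibitor of the GTPase Cdc42 (4 intraperitoneal injections of 25 mg/kg, 1 every 24 h, harvest on day 5). The labels give 2 sequencing batches. Batch 1 was made up of aged replicate 1 and of replicates 1 and 2 of the young and CASIN groups, and batch 2 of aged replicates 2 and 3 and of replicate 3 of the other groups. Within a batch, therefore, the aged group or the young and CASIN groups had a single sample. The labels do not say whether each sample was a separate animal, so p-values measure the spread between these samples.

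NF-kB factors are dimers that wait in the cytoplasm, bound by inhibitors of the IkB family. Signals from receptors of tumor necrosis factor, interleukin 1 or Toll-like ligands activate a kinase complex that has the inhibitor degraded, and the dimer then enters the nucleus and switches on target genes. Several of these targets are the pathway's own brakes, and mRNA of Nfkbia, Tnfaip3 and Birc3 is commonly read as a trace of recent activity. In hematopoiesis the pathway takes part in lymphoid development, in the response of stem cells to inflammation and in emergency production of myeloid cells.

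UMIs (unique molecular identifiers) count single captured transcripts, and levels are given as counts per 1e6 UMIs summed over the cells of a sample (CPM). Differences are log2 fold changes ± standard error from edgeR's quasi-likelihood model of the 9 samples with the sequencing batch as a term, and adjusted p-values are Benjamini-Hochberg values over all genes tested, called below 0.05. Of 32387 barcodes, 15856 passed the study's filters. The libraries held 19237354 to 42780953 UMIs, and the kept cells of a sample 17555578 to 35118707. From 56.4% to 86.2% of the barcodes were kept in batch 1 and from 31.6% to 38.4% in batch 2, where the median mitochondrial share of the kept cells was 5.0% to 7.0%, against 2.65% to 3.49% in batch 1. Kit and Ly6a, the genes of the 2 proteins used for the sort, were present at 112 to 225 and 87.9 to 186 CPM. Among the kept cells, 54 barcode sequences occurred in more than 1 library. Of 8 lists of markers of other cell types, summed over all LSK cells, those of neutrophils (3.42 to 28.8 CPM in batch 1, 29.5 to 421 CPM in batch 2) and plasma cells (65.3 to 78.3 and 165 to 268 CPM, most of it Xbp1) were higher in batch 2 without overlap. Those of B cells (36.6 to 127 and 9.60 to 33.6 CPM) and red cells (28.2 to 48.3 and 13.3 to 26.6 CPM) were lower, and those of T and NK cells, macrophages, mature dendritic cells and stroma overlapped. Sums over all LSK cells mix clusters, so fewer cells of a kind and less RNA per cell cannot be told apart in them.

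The genes are described with the gene bounds of the GRCm38 annotation. Nfkbia spans chr12:55489410-55492647 on the minus strand, Tnfaip3 chr10:19000910-19015657 on the minus strand, Rel chr11:23736847-23770970 on the minus strand and Nfkb2 chr19:46304320-46312385 on the plus strand. Nfkb1 lies at chr3:135584655-135691547, Relb at chr7:19606217-19629438, Nfkbiz at chr16:55811375-55838899, Bcl3 at chr7:19808462-19822770 and Birc3 at chr9:7848699-7873186, all on the minus strand, and Cd83 at chr13:43784775-43803132 on the plus strand. The 250 bases before a transcription start were searched on both strands for the 10-letter kB consensus of NF-kB binding sites. RefSeq windows of GRCm38.p6 matched 6 of the 10 genes (Nfkbia, Tnfaip3, Rel, Nfkb2, Bcl3 and Birc3), and 4 of these, the first 4, held at least 1 match, against 3.90% of all 32851 windows and 4.46% of all genes. The 4 windows with a match next to the first RefSeq start are shown 5′ to 3′ on the strand of the gene, with the matching bases in capitals.
Nfkbia, chr12:55492648-55492897: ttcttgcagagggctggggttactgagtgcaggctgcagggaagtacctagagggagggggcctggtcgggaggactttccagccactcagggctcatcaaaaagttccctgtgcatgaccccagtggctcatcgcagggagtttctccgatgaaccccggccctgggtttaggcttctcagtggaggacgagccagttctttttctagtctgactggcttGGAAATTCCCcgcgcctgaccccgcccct
Tnfaip3, chr10:19015411-19015660: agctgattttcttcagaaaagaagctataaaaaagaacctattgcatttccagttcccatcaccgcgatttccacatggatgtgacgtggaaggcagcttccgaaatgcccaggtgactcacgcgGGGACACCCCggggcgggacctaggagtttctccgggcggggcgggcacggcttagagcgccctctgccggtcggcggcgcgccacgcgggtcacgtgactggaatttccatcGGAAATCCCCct
Rel, chr11:23770970-23771219: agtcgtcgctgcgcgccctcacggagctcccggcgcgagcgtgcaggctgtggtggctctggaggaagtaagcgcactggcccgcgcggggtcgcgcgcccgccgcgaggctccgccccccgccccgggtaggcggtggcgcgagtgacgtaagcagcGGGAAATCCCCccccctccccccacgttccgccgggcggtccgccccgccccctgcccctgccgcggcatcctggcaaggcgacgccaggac
Nfkb2, chr19:46304487-46304736: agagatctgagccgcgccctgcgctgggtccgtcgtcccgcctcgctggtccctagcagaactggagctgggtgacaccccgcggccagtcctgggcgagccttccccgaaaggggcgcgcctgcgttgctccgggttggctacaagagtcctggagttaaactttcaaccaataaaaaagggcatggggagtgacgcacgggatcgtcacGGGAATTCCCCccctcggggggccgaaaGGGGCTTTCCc
In Nfkbia the matching stretch lay 29 to 20 bases before the start. Tnfaip3 held 2 stretches, the nearer one 12 to 3 bases before the start, and Rel held a single stretch 92 to 82 bases before it. Nfkb2 held 2 stretches in the window shown. All these starts are those of RefSeq. That of Nfkbia is the end of the gene bounds given above, while those of Tnfaip3, Rel and Nfkb2 differ from the bounds. By those bounds the Nfkb2 window lies inside the gene, and the Tnfaip3 window does so but for its 5′ end. The matches of these 2 genes are therefore downstream of the start by those bounds. A match is a match of letters, and binding was not measured.

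Each of the 4 subunit genes was higher in every sample of batch 2 than in any sample of batch 1, whatever the group. Bcl3, Birc3 and Cd83 separated in the same way. The share of all genes that did so was not counted, while 34.3% of all genes tested were called higher in batch 2. Nfkb1, which encodes the precursor of the smallest DNA-binding subunit, was at 65.6, 65.2 and 181 CPM in young replicates 1, 2 and 3, at 55.7, 323 and 341 CPM in the aged and at 61.4, 68.4 and 232 CPM in the CASIN replicates. Nfkb2, the precursor of the subunit of the non-canonical branch, was at 9.94, 8.99 and 38.6 CPM in the young, 8.33, 34.7 and 54.7 CPM in the aged and 6.49, 6.89 and 40.8 CPM in the CASIN replicates. In both genes the single young sample, the pair of aged samples and the single CASIN sample of batch 2 stood apart from the other 5. Rel, the c-Rel subunit of lymphoid cells, was at 47.0, 59.5 and 102 CPM in the young, 29.7, 136 and 143 CPM in the aged and 39.6, 38.2 and 94.8 CPM in the CASIN replicates. Relb, the partner of the processed Nfkb2 product, was at 15, 15 and 36.8 CPM in the young, 9.96, 37.6 and 60.8 CPM in the aged and 12.2, 12.7 and 51.1 CPM in the CASIN replicates. In the model, batch 2 exceeded batch 1 by 1.88 ± 0.17 for Nfkb1, 2.28 ± 0.16 for Nfkb2, 1.39 ± 0.20 for Rel and 1.80 ± 0.20 for Relb. Rela, the remaining subunit gene, was also higher, by 1.43 ± 0.10 (edgeR, adjusted p = 1.45e-06). These are single values over the groups, and for Nfkb1 and Rel the gap differed between aged and young samples, as given below.

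**Figure D1:**
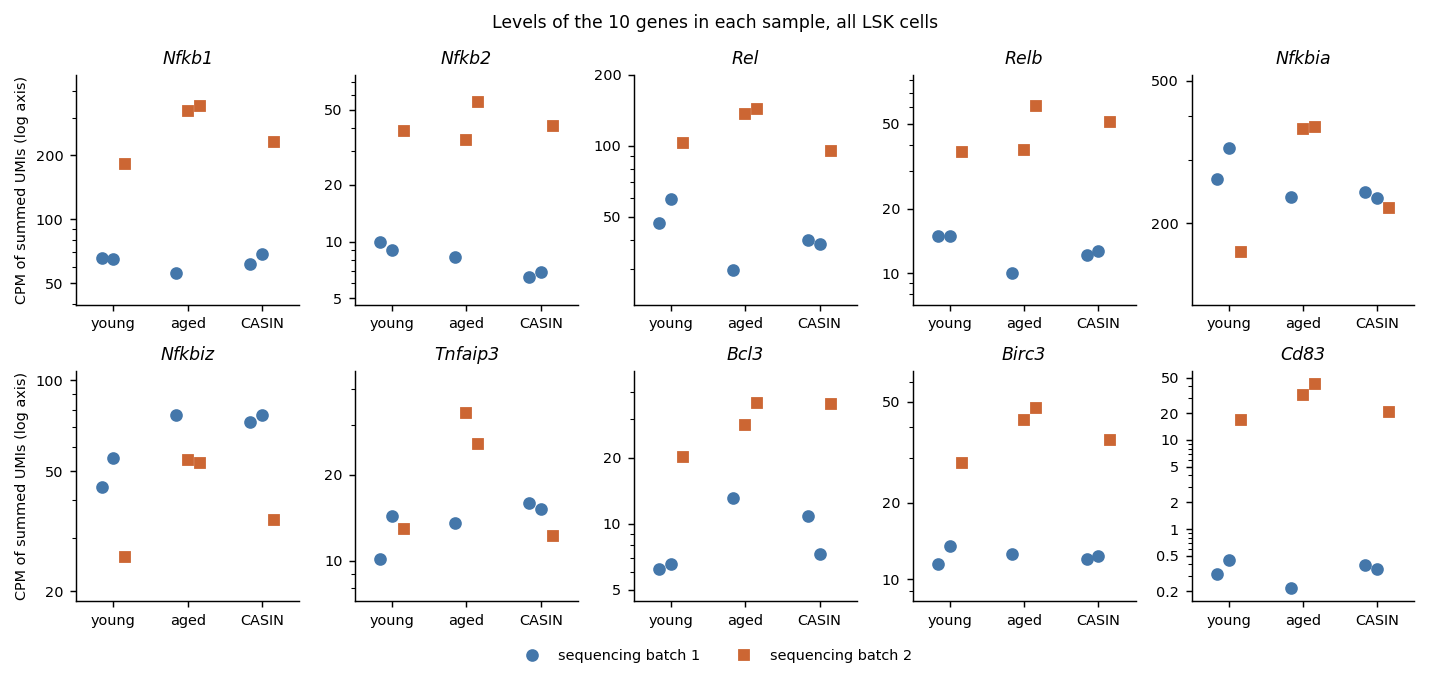
Level of each of the 10 genes in each of the 9 samples (points, CPM of UMIs summed over all LSK cells, log axis), by group along the x axis and by sequencing batch in colour and shape. Nfkb1, Nfkb2, Rel, Relb, Bcl3, Birc3 and Cd83 separate by batch without overlap, whereas Nfkbia, Nfkbiz and Tnfaip3 overlap.

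Nfkbia, Tnfaip3 and Nfkbiz did not follow the subunits as a block. Nfkbia, the classical inhibitor that pulls dimers back out of the nucleus, was at 266, 325 and 166 CPM in young replicates 1, 2 and 3, at 237, 368 and 372 CPM in the aged and at 244, 236 and 220.3 CPM in the CASIN replicates. Its lowest level was in young replicate 3 and its highest in the aged samples of the same batch. Tnfaip3, the ubiquitin-editing enzyme that shuts off signalling from the receptors, was at 10.1, 14.3 and 12.9 CPM in the young, 13.5, 33.1 and 25.6 CPM in the aged and 15.9, 15.2 and 12.2 CPM in the CASIN replicates. Only aged replicates 2 and 3 stood above the range of the other 7 samples. Nfkbiz, a nuclear member of the IkB family that cooperates with the factor at secondary targets, was at 44.4, 55.4 and 26.0 CPM in the young, 76.7, 54.6 and 53.3 CPM in the aged and 72.8, 76.8 and 34.3 CPM in the CASIN replicates. For Nfkbia (-0.18 ± 0.22, adjusted p = 0.49) and Tnfaip3 (0.21 ± 0.25, adjusted p = 0.48) the edgeR model called no batch difference, and Nfkbiz was lower in batch 2 by -0.93 ± 0.12.

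The remaining 3 genes again separated by batch. Bcl3, a nuclear IkB protein that binds dimers of the Nfkb1 and Nfkb2 products, was at 6.21, 6.51 and 20.2 CPM in the young, 13.1, 28.3 and 35.7 CPM in the aged and 10.8, 7.29 and 35.3 CPM in the CASIN replicates. Birc3, a ubiquitin ligase that protects from cell death after tumor necrosis factor, was at 11.5, 13.6 and 28.8 CPM in the young, 12.6, 42.4 and 47.4 CPM in the aged and 12.0, 12.3 and 35.2 CPM in the CASIN replicates. Cd83, a surface glycoprotein of mature dendritic cells and activated lymphocytes, showed the widest gap, with 4 to 14 UMIs in each sample of batch 1 and 294 to 883 in each sample of batch 2. As levels these were 0.31, 0.44 and 16.6 CPM in the young, 0.22, 32.0 and 42.6 CPM in the aged and 0.40, 0.35 and 20.6 CPM in the CASIN replicates. The batch differences were 1.57 ± 0.15 for Bcl3, 1.45 ± 0.12 for Birc3 and 5.86 ± 0.24 for Cd83.

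In total, edgeR called 8 of the 10 genes between the batches in all LSK cells, 7 higher and 1 (Nfkbiz) lower in batch 2, where 71.8% of all genes tested were called in either direction and 34.3% were higher. These 8 calls held in all 17 alternatives run, among them a mitochondrial limit of 5%, under which the difference was 1.75 for Nfkb1 and 6.17 for Cd83. In HSC-1-like cells, a cluster in which all 14 of the stem cell markers used were above the other cells, all 10 genes were called (70.4% of all genes), 7 higher and 3 lower, the latter being Nfkbiz (-1.49 ± 0.13), Nfkbia (-0.47 ± 0.15) and Tnfaip3 (-0.64 ± 0.27). The call for Nfkbia was lost without young replicate 3 (-0.19) or CASIN replicate 3 (-0.46) and at the 5% limit (-0.09), and that for Tnfaip3 in 10 of 17 alternatives, with -0.22 without CASIN replicate 3. In LMPP-like cells, a lymphoid-primed cluster with 9 of 9 markers above the other cells, 9 genes were called (64.5% of all genes), with Tnfaip3 now higher (0.91 ± 0.17), Nfkbiz lower (-0.56 ± 0.22) and Nfkbia not called (-0.08 ± 0.19, adjusted p = 0.74). The call for Nfkbiz was lost without young replicate 3 (-0.20), CASIN replicate 2 (-0.49) or CASIN replicate 3 (-0.60).

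Batch 2 also differed from batch 1 in a list of 24 immediate early and heat shock genes known to respond to handling of cells, of which 15 were lower, 7 higher and 2 not called, with a median difference of -1.17 over the list against -0.08 over all genes. Fos was at 1296 to 2615 CPM in batch 1 and at 17.7 to 135 CPM in batch 2, and Egr1 at 322 to 883 and 18.0 to 55.2 CPM, while Nr4a1 was at 107 to 377 and 239 to 1149.9 CPM. The part of handling in the batch difference was not tested. In LMPP-like cells the 8 markers of mature dendritic cells summed to 13.3 to 17.4 CPM in batch 1 and 12.8 to 16.7 CPM in batch 2. The neutrophil list summed to 1.66 to 2.69 and 1.23 to 4.24 CPM there, so that both overlapped. The dendritic list reached higher in batch 2 in HSC-1-like (13.5 to 19.3 and 19.3 to 30.5 CPM) and all LSK cells (11.6 to 14.6 and 13.4 to 20.2 CPM). The batches overlapped in these sets too. Its counts were mostly Fscn1 (1417 UMIs) and Flt3l (954), with 9 of Ccl22 and 18 of Cd209a. The part of such cells in the batch gap of Cd83 was not tested.

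The first question of the design was what differs with age. In aged over young samples, Nfkbiz and Bcl3, both nuclear IkB proteins, were the genes called, and they were called in all LSK cells and in HSC-1-like cells. Within each batch every aged sample was above every young sample for Nfkbiz, at 76.7 against 44.4 and 55.4 CPM in batch 1 and at 53.3 and 54.6 against 26.0 CPM in batch 2, so that the groups overlapped only across the batches. The difference in all LSK cells was 0.90 ± 0.15 for Nfkbiz (edgeR, adjusted p = 0.016) and 0.81 ± 0.19 for Bcl3 (adjusted p = 0.046). Called were 2 of the 10 genes, or 20%, against 4.1% of all genes tested, with a median of 0.40 over the 10 genes and 0.01 over all genes. Both rest on few libraries. Bcl3 was called in only 8 of 20 alternatives, and missed the threshold without young replicate 1 (0.78), 2 (0.83) or 3 (0.80), aged replicate 1 (0.58) or 3 (0.78), or CASIN replicate 1 (0.79), with adjusted p between 0.082 and 0.18. For Nfkbiz the call was lost by leaving out young replicate 1 (0.83) or 2 (1.00), with adjusted p of 0.074 and 0.051. Without aged replicate 1, the only aged sample of batch 1, 4 genes were called. The share of all genes in that setting is not given, so this count is no result about the 10 genes.

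In HSC-1-like cells the same genes were called. Bcl3 was at 5.98, 6.37 and 13.6 CPM in the young, 16.8, 42.1 and 38.9 CPM in the aged and 16.3, 11.2 and 37.0 CPM in the CASIN replicates. The aged samples were above all young samples, across the batches as well. Nfkbiz was at 48.5, 60.6 and 24.6 CPM in the young, 92.5, 41.9 and 31.9 CPM in the aged and 98.1, 99.97 and 30.7 CPM in the CASIN replicates, and again the aged samples were above the young ones within each batch. The differences were 1.56 ± 0.18 for Bcl3 (edgeR, adjusted p = 0.00033) and 0.83 ± 0.15 for Nfkbiz (adjusted p = 0.0055), 2 of 10 genes against 9.29% of all genes. Each was called in 20 of 21 alternatives and lost with no batch term (Bcl3 1.97, Nfkbiz 0.36). Within batch 2 Nfkbiz was not called (0.67 ± 0.24, adjusted p = 0.18). Without aged replicate 1, 5 genes were called, again without the share of all genes beside them. Of the others, Nfkbia (0.54 ± 0.19, adjusted p = 0.093), Birc3 (0.55 ± 0.19, adjusted p = 0.093), Nfkb1 (0.45 ± 0.18, adjusted p = 0.14) and Tnfaip3 (0.68 ± 0.32, adjusted p = 0.21) were not called. In LMPP-like cells none of the 10 genes was called by edgeR, against 0.0569% of all genes. The largest estimates were those of Cd83 (1.26 ± 0.28, adjusted p = 0.13) and Nfkbiz (1.04 ± 0.26, adjusted p = 0.21). At an unadjusted p under 0.05 there were 5 of the 10 genes, and DESeq2 called 1. The shares of all genes for these counts are not given, so they are no result about the 10 genes.

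The handling list moved beside these differences. Of its 24 genes, 13 were higher in aged than in young samples in all LSK cells (median 1.01) and 17 in HSC-1-like cells (median 1.02), and none lower, while none of 23 tested was called in LMPP-like cells (median 0.75). Its summed level in HSC-1-like cells was 12297 and 12315 CPM in the young and 18264 CPM in the aged samples of batch 1, and 4293 CPM in the young and 8185 and 5994 CPM in the aged samples of batch 2. The part of handling in the differences of Nfkbiz and Bcl3 was not tested.

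The age difference of 3 genes itself differed between the batches. In batch 1, Rel was lower in aged replicate 1 than in both young samples, by -0.84 ± 0.16 in all LSK cells and by -1.62 ± 0.22 in HSC-1-like cells (13.6 CPM against 41.9 and 47.1 CPM). In batch 2 it was at 85.5 CPM in the young and at 98.8 and 94.0 CPM in the aged HSC-1-like cells, a difference of 0.25 ± 0.18 that was not called. Nfkb1 and Nfkbia were higher in the aged samples of batch 2, by 0.89 ± 0.12 and 1.18 ± 0.14 in all LSK cells, and were not called in batch 1 (-0.22 ± 0.12 and -0.31 ± 0.14). The difference between the batches was 1.30 ± 0.22 for Rel (edgeR, adjusted p = 0.026), 1.12 ± 0.17 for Nfkb1 (adjusted p = 0.016) and 1.49 ± 0.20 for Nfkbia (adjusted p = 0.013), 3 of 10 genes against 3.09% of all genes. It missed the threshold for Nfkb1 without young replicate 1 (1.14) or 2 (1.12), and for Rel without young replicate 2 (1.12). HSC-1-like cells gave the same 3 genes (0.85% of all genes), with 1.88 ± 0.28 for Rel, 1.06 ± 0.22 for Nfkb1 and 1.16 ± 0.20 for Nfkbia. There the call of Nfkb1 was lost in 7 of 12 alternatives, among them without young replicate 1 (1.01), CASIN replicate 1 (1.05) or CASIN replicate 2 (1.05), and that of Nfkbia in cells thinned to 4000 UMIs (1.07). In LMPP-like cells none was called (0% of all genes, with 3 of the 10 genes at an unadjusted p under 0.05 and 1 called by DESeq2). The shares of all genes at an unadjusted p and by DESeq2 are not given.

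**Figure D2:**
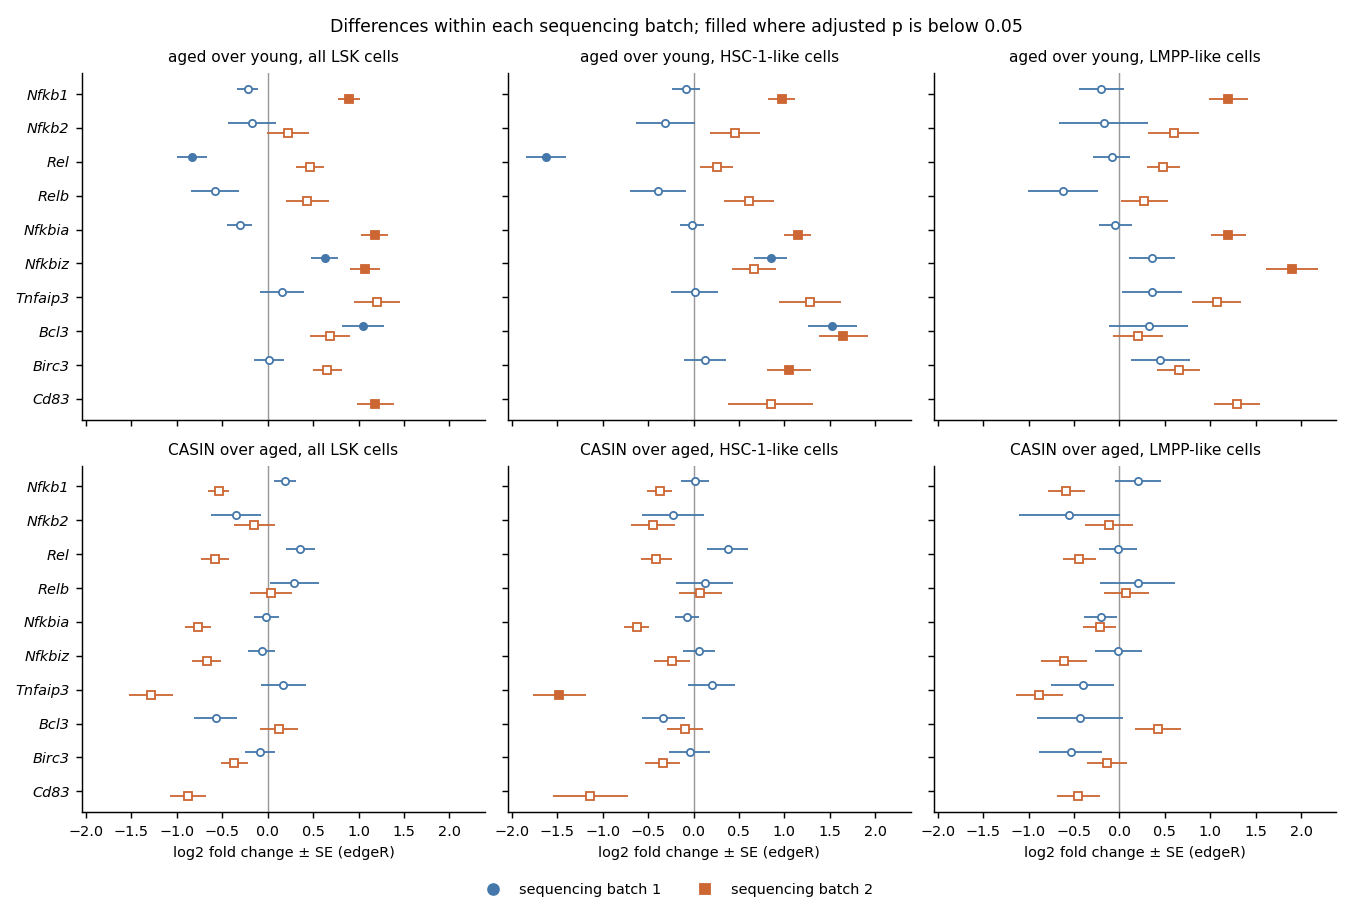
Log2 fold changes (points, edgeR) ± standard error (bars) of the 10 genes within each sequencing batch, aged over young above and CASIN over aged below, in all LSK, HSC-1-like and LMPP-like cells, filled where the adjusted p is below 0.05. Aged over young lies above 0 for all 10 genes in batch 2 and on both sides in batch 1, with Rel at -1.62 in HSC-1-like cells, and CASIN over aged is filled once, for Tnfaip3 in HSC-1-like cells of batch 2. Cd83, with few UMIs in batch 1, is shown for batch 2 only.

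Within the batches taken alone, edgeR called Rel, Nfkbiz and Bcl3 (0.63 ± 0.15 and 1.05 ± 0.23 for the latter) in batch 1 of all LSK cells, against 14% of all genes, and Nfkb1, Nfkbia, Nfkbiz (1.07 ± 0.17) and Cd83 (1.19 ± 0.21) in batch 2, against 0.652%. In HSC-1-like cells the calls were Rel, Nfkbiz (0.85 ± 0.18) and Bcl3 (1.53 ± 0.27) in batch 1, against 11.3% of all genes, and Nfkb1 (0.97 ± 0.15), Nfkbia (1.15 ± 0.15), Bcl3 (1.65 ± 0.27) and Birc3 (1.05 ± 0.24) in batch 2, against 1.93%. Bcl3 was the only gene called in both batches of these cells, with nearly the same size. LMPP-like cells had no call in batch 1 (0% of all genes) and 3 in batch 2 (0.341%): Nfkb1 (1.20 ± 0.22), Nfkbia (1.20 ± 0.19) and Nfkbiz (1.90 ± 0.29). For a group with a single sample in a batch, the spread was taken from the groups with 2.

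The second question was whether CASIN moves aged cells. None of the 10 genes was called between CASIN and aged samples in all LSK, HSC-1-like or LMPP-like cells, where edgeR called 0% of all genes in each. At an unadjusted p under 0.05 there were 439 of 13642, 395 of 11758 and 600 of 10552 genes, 2 of the 10 members in each of the 3 cell sets, and DESeq2 called 0, 0 and 1 genes. The estimates were below 0 for 9 of the 10 genes in all 3 cell sets. In all LSK cells they ran from -0.76 ± 0.27 for Cd83, -0.63 ± 0.30 for Tnfaip3 and -0.55 ± 0.26 for Nfkbia to 0.04 ± 0.23 for Relb, with a median of -0.30 against -0.01 over all genes. The handling list had 22 of 24 estimates below 0 and a median of -0.53 in the same comparison. Both comparisons, CASIN over aged and aged over young, use the same aged samples.

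Within the batches, the single call was in batch 2. In HSC-1-like cells of that batch, Tnfaip3 was at 18.3 and 15.4 CPM in the aged samples and 5.91 CPM in CASIN replicate 3, a difference of -1.48 ± 0.29 (edgeR, adjusted p = 0.049, against 0.264% of all genes), and it was at 13.2 CPM in the aged and 15.7 and 15.4 CPM in the CASIN samples of batch 1 (0.20 ± 0.25). The CASIN group had a single sample in batch 2. The test of the CASIN effect between the batches called none of the 10 genes in HSC-1-like cells, against 0.0255% of all genes. Among its alternatives, Tnfaip3 was called only with no filter on low counts. Young replicate 3, of batch 2, was at 7.32 CPM of Tnfaip3. In all LSK cells the same gene had -1.28 ± 0.24 in batch 2 (adjusted p = 0.13, where 0.0147% of all genes were called) and 0.17 ± 0.25 in batch 1 (0% called).

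Between CASIN and young samples in HSC-1-like cells, 2 of 10 genes were called, close to the 15.3% of all genes. Bcl3 was higher by 1.35 ± 0.18 (edgeR, adjusted p = 0.00046) and Nfkbiz by 0.78 ± 0.14 (adjusted p = 0.0029). The same genes were called in aged over young, which uses the same young samples. Within the batches, Bcl3 had 1.19 ± 0.25 and 1.55 ± 0.29 and was called in both. Nfkbiz was called in batch 1 (0.90 ± 0.15) but not in batch 2 (0.43 ± 0.26, adjusted p = 0.44, 4.38% of all genes called). Rel had -0.88 ± 0.28 and an adjusted p of 0.0501, just over the threshold, and was called in 8 of the alternatives. In batch 1, the only batch with 2 samples on both sides, Rel was at 21.4 and 15.1 CPM in the CASIN and at 41.9 and 47.1 CPM in the young HSC-1-like cells (-1.25 ± 0.17, adjusted p = 0.00016, 15.1% of all genes called). In batch 2 it was at 70.7 and 85.5 CPM (-0.16 ± 0.20). In all LSK cells, Rel (-0.48 ± 0.13) and Nfkbiz (0.56 ± 0.12) were called within batch 1, against 10.2% of all genes, and none within batch 2, against 0.924%. No gene was called in all LSK cells (4.27% of all genes, with Nfkbiz at 0.51 ± 0.14, adjusted p = 0.068) or in LMPP-like cells (0.0379%). At an unadjusted p under 0.05 there were 2 of 10 genes in each, and DESeq2 called 2 in all LSK and 0 in LMPP-like cells. The shares of all genes for these counts are not given, so they are no result about the 10 genes.

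Next, the genes were followed across LSK subsets. To form subsets without any of the members, cells with at least 1 UMI of Flt3 and none of Procr (Flt3-gated, 254 to 1062 cells per sample) were compared with cells with at least 1 UMI of Procr and none of Flt3 (Procr-gated, 289 to 1105 cells). Flt3, a cytokine receptor, marks progenitors on the way to lymphoid fates, and Procr, the protein C receptor, marks stem cells. Rel and Nfkbia were higher in the Flt3-gated cells of all 9 samples. Nfkbia was at 308, 377 and 201 CPM in Flt3-gated and at 197, 220 and 117 CPM in Procr-gated cells of the young replicates. The aged replicates had 325, 448 and 503 CPM against 212, 244 and 241 CPM, and the CASIN replicates 299, 252 and 342 CPM against 204, 225 and 165 CPM. Although the level differed between samples, the 2 gates were ordered the same way in each. Rel was at 50.8, 65.0 and 122 CPM in Flt3-gated and at 34.9, 46.6 and 80.7 CPM in Procr-gated cells of the young replicates. The aged replicates had 56.3, 170.3 and 186 CPM against 17.0, 106 and 102 CPM, and the CASIN replicates 55.3, 55.0 and 131 CPM against 22.2, 18.2 and 76.9 CPM.

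With the sample as a block, edgeR called 4 of the 9 genes tested as higher in Flt3-gated cells and none as lower, against 59.4% of all genes in either direction and 28.6% higher. These were Rel (0.93 ± 0.13, adjusted p = 4.78e-05), Nfkbia (0.74 ± 0.07, adjusted p = 4.3e-06), Tnfaip3 (0.67 ± 0.24, adjusted p = 0.031) and Birc3 (0.47 ± 0.14, adjusted p = 0.0098). Nfkb1 (0.10 ± 0.06), Nfkb2 (0.13 ± 0.10), Relb (0.16 ± 0.07), Nfkbiz (0.25 ± 0.18) and Bcl3 (-0.17 ± 0.17) were not called, and Cd83 did not pass the filter on low counts. The calls of Rel, Nfkbia and Birc3 held in all 17 alternatives. That of Tnfaip3 was lost without young replicate 3 (0.63), aged replicate 2 (0.52), aged replicate 3 (0.52) or CASIN replicate 3 (0.55), the 4 samples of batch 2, and at the 5% mitochondrial limit (0.49).

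The gap between the gates of Tnfaip3, Birc3 and Nfkbiz lay in batch 2. Cd83 was higher in Flt3-gated cells in 4 of 5 samples of batch 1 and 4 of 4 of batch 2. Its UMIs in batch 1 were too few to size a gap there. Tnfaip3 was at 9.20, 13.7, 13.7, 16.3 and 12.1 CPM in the Flt3-gated and at 10.5, 14.1, 14.4, 14.3 and 16.9 CPM in the Procr-gated cells of the 5 samples of batch 1 (2 young, 1 aged and 2 CASIN, in this order). In those of batch 2 (1 young, 2 aged and 1 CASIN) it was at 19.5, 46.6, 39.6 and 21.4 CPM against 8.87, 15, 11.7 and 6.83 CPM. The gates overlapped in batch 1 and were apart in every sample of batch 2. Within batch 2, edgeR called 8 of 10 genes, all higher in Flt3-gated cells, against 48.9% of all genes called in either direction. The share of all genes called higher within a batch is not given. The 8 were Cd83 (2.68 ± 0.13), Tnfaip3 (1.58 ± 0.12), Nfkbia (0.94 ± 0.06), Birc3 (0.88 ± 0.08), Nfkbiz (0.82 ± 0.16), Rel (0.71 ± 0.06), Nfkb2 (0.34 ± 0.08) and Relb (0.23 ± 0.08). Within batch 1 it called Rel (1.16 ± 0.18), Nfkbia (0.61 ± 0.08) and Nfkb1 (0.21 ± 0.06), against 54.2% of all genes in either direction. Tnfaip3 (-0.06 ± 0.11), Birc3 (0.02 ± 0.10) and Nfkbiz (-0.13 ± 0.15) were not called there. The difference of the gap between the batches was called for 7 of 10 genes, against 16.1% of all genes, with 1.59 ± 0.18 for Tnfaip3, 0.95 ± 0.20 for Nfkbiz, 0.92 ± 0.13 for Birc3 and -0.55 ± 0.14 for Rel. It missed the threshold for Rel without aged replicate 1 (-0.38) or CASIN replicate 3 (-0.43), and for Nfkbiz without aged replicate 1 (0.57). The calls of Nfkbia and Bcl3 were lost in DESeq2 (0.31 and 0.78) and without CASIN replicate 3 (0.19 and 0.74), and that of Nfkbia also without aged replicate 1 (0.34). In the same test, 15 of the 24 handling genes had a larger and 1 a smaller difference in batch 2.

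**Figure D3:**
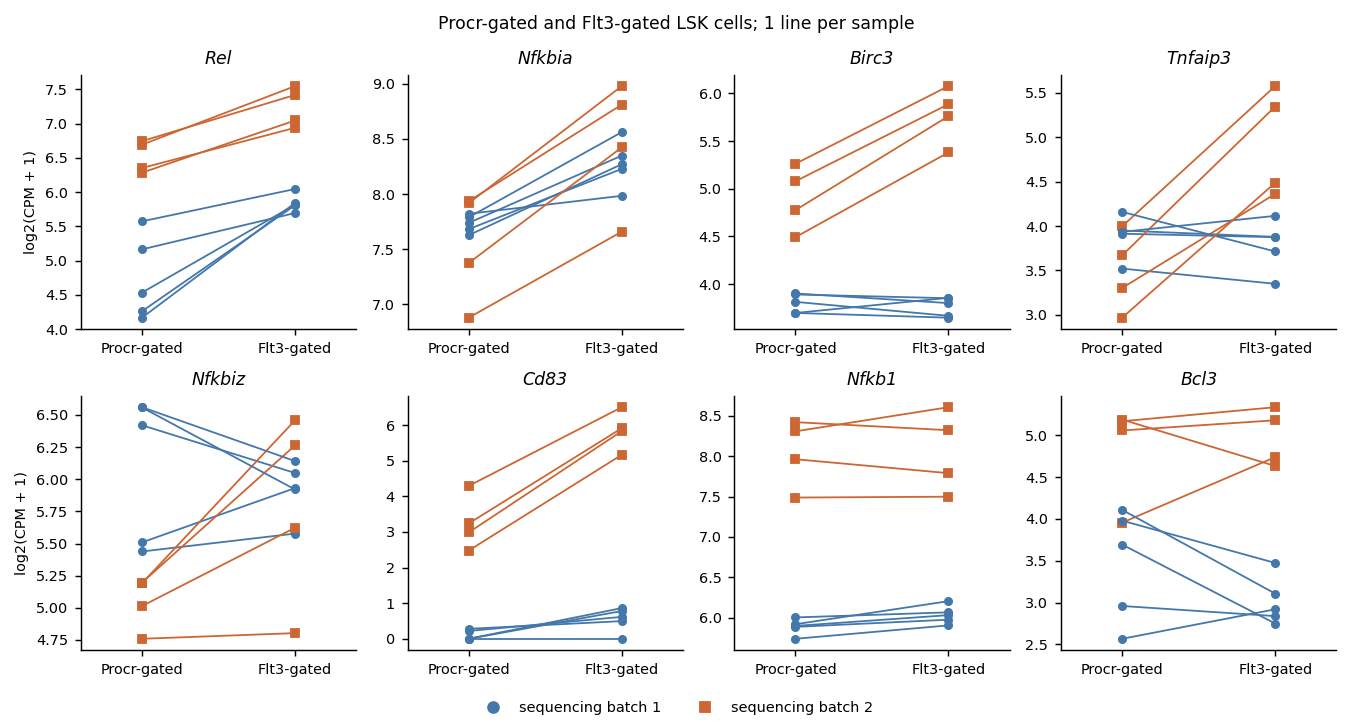
Level of 8 of the genes (log2 of CPM + 1) in Procr-gated and Flt3-gated LSK cells, with a line for each of the 9 samples coloured by sequencing batch. Lines of Rel and Nfkbia go up in 9 of 9 samples, and those of Tnfaip3, Birc3, Nfkbiz and Cd83 go up in the 4 samples of batch 2 but not in all 5 of batch 1.

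Cd83 was the sharpest of these. In batch 2 it was at 34.9, 59.3, 89.7 and 55.9 CPM in Flt3-gated cells and at 4.57, 8.44, 18.6 and 6.93 CPM in Procr-gated cells, with the samples in the same order. No sample of batch 1 had more than 12 UMIs in either gate. At least 1 UMI of Cd83 was found in 26.9%, 33.3%, 42.3% and 33.5% of the LMPP-like cells of the same 4 samples, and in 4.38%, 3.59%, 5.58% and 1.98% of their HSC-1-like cells. The median depth was 13118.5 UMIs in LMPP-like and 9840 UMIs in HSC-1-like cells, and after thinning each cell to 4000 UMIs the shares were 14.9%, 21.5%, 27.6% and 18.1% against 1.61%, 1.22%, 2.36% and 0.701%. In batch 1 the LMPP-like cells held 0 to 5 UMIs per sample, and 0 in CASIN replicate 1, where 3 UMIs would have been 1.28 CPM.

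Whether age acts differently in the subsets was tested by the interaction of gate and group. The aged over young difference of Bcl3 was smaller in Flt3-gated than in Procr-gated cells by -1.13 ± 0.24 (edgeR, adjusted p = 0.0066), and that of Rel larger by 0.63 ± 0.16 (adjusted p = 0.019), 2 of 10 genes against 7.72% of all genes. Bcl3 was at 4.92, 6.77 and 14.5 CPM in Procr-gated cells of the young and 16.3, 35.5 and 32.3 CPM in those of the aged replicates, without overlap. In Flt3-gated cells it was at 6.56, 6.15 and 25.7 CPM in the young and 7.61, 23.8 and 35.3 CPM in the aged replicates, with overlap. The interaction of Bcl3 was called in all 15 alternatives, and that of Rel missed the threshold without young replicate 1 (0.56), young replicate 2 (0.54) or aged replicate 1 (0.44) and in DESeq2 (0.68). In this test 12 of the 24 handling genes had a smaller and 1 a larger age difference in Flt3-gated cells. For CASIN over aged, no interaction was called among the 10 genes, against 0.0647% of all genes. At an unadjusted p under 0.05 there was 1 of 10, and DESeq2 called 0, without the shares of all genes beside them.

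Clusters of the cells, formed without the 103 genes of the pathway lists and named by markers, gave the same order for Nfkbia and Rel, as a description without a test. In LMPP-like cells, led by Dntt and Satb1, Nfkbia was at 396, 485 and 247 CPM in the young, 411, 499.9 and 603 CPM in the aged and 399, 331 and 476 CPM in the CASIN replicates. In HSC-1-like cells it was at 228, 244 and 120 CPM, 222, 246 and 259 CPM, and 213, 219 and 159 CPM. LMPP-like cells were above HSC-1-like, MPP3-like and HSC-3-like cells in 9 of 9 samples for Nfkbia and for Rel, and above the next cluster in the order in 8 and 9 of 9. Among the 10 larger clusters ranked, they also had the highest mean level, relative to their own sample, for Nfkbiz, Tnfaip3, Birc3 and Cd83, above HSC-1-like cells in 7, 8, 7 and 8 of 9 samples. In batch 1 they were above in 3, 4 and 3 of 5 samples for Nfkbiz, Tnfaip3 and Birc3, where the Flt3-gated cells were above in 2, 1 and 1 of 5. For Tnfaip3 and Birc3 the next cluster in the order, Gm42418-led and interferon-like cells, was lower in only 5 of 9 samples, so the first rank was not fixed over the samples. MPP2-like cells, the cluster with the platelet genes Pf4 and Itga2b, were last or next to last among these clusters for 8 of the 10 genes and held 5 UMIs of Cd83 in all, 0 to 1.99 CPM.

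Nfkb1, Nfkb2 and Relb, unlike Rel, ranked highest in clusters other than LMPP-like cells among the same 10. LMPP-like cells came right after the highest cluster for Nfkb1 and Relb, above HSC-1-like cells in 9 and 8 of 9 samples. Nfkb1 was highest in the Gm42418-led cells (73.0 to 543 CPM, above HSC-1-like cells in 9 of 9 samples), a cluster with a low median of 6865 UMIs, and Bcl3 was also highest there (8.47 to 46.6 CPM), ahead of HSC-1-like cells. Relb was highest in HSC-3-like cells, the cluster led by Cd74 and other MHC class II genes, at 16.7 to 83.3 CPM, above HSC-1-like cells in 9 of 9 and LMPP-like cells in 6 of 9 samples. For Nfkb2 the Hist1h2bc-led cells came first (5.98 to 67.7 CPM), and LMPP-like exceeded HSC-1-like cells in 0 of 5 samples of batch 1 and 4 of 4 of batch 2.

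**Figure D4:**
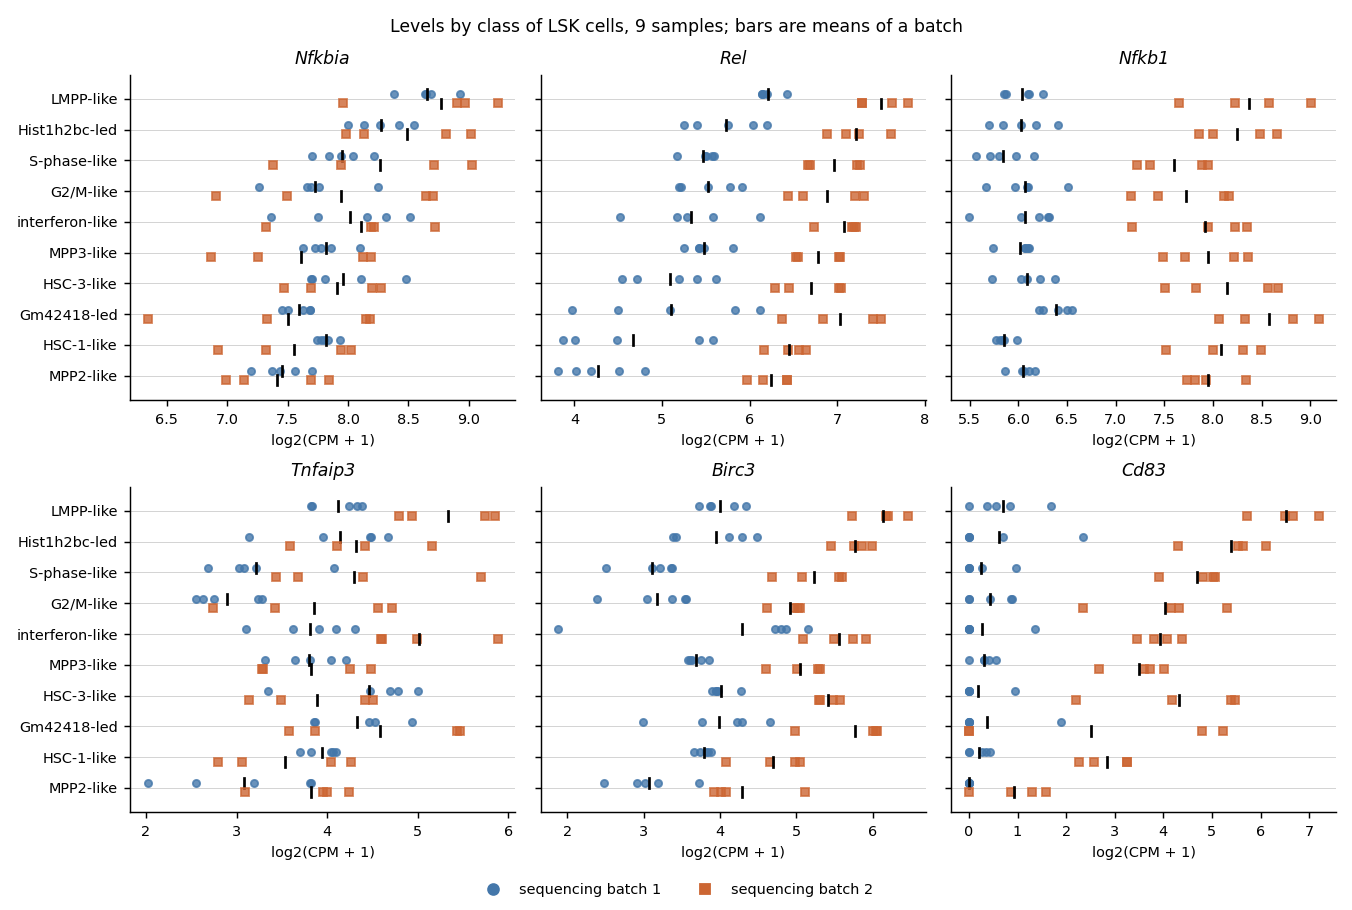
Level of 6 of the genes (log2 of CPM + 1) in 10 clusters of LSK cells, each point a sample coloured by sequencing batch and each bar the mean of a batch. Nfkbia and Rel are highest in LMPP-like cells in both batches, and Cd83 is near 0 in batch 1 and up to 146 CPM in LMPP-like cells of batch 2.

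Small clusters were summed over the samples of a batch, with exact 95% Poisson intervals that cover counting error only. Summed in the same way, LMPP-like cells had 462 CPM of Nfkbia and 97.8 CPM of Cd83 in batch 2. In batch 1 they had 415 and 0.64 CPM. The Ebf1-led cells were 121 cells, 7 to 24 per sample. Their lead genes were Ebf1, Cd79a, Vpreb3, Vpreb1, Igll1 and Ly6d of the early B lineage, but also Ly6c2, Lgals3, F13a1 and Lgals1. Whether these genes lay in the same cells was not tested. The cluster had 911 CPM of Nfkbia (848 to 976) and 214 CPM of Cd83 (184 to 247) in batch 2. In batch 1 it had 201 CPM (175 to 230.3) and 3.83 CPM (1.04 to 9.81). Granulocyte-like cells, 85 cells with Elane and S100a8 and 4 to 16 per sample, had 1261 CPM of Nfkbia (1175 to 1352) in batch 2. In batch 1 they had 279 CPM (238 to 326). Both clusters were thus above LMPP-like cells for Nfkbia in batch 2 and below them in batch 1. The Id1-led cells, 169 cells, were below LMPP-like cells in both, at 244 CPM (156 to 363) in batch 2 and 354 CPM (330 to 380) in batch 1.

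Besides the members, the genes whose levels followed Nfkbia most closely over 115 sums of a cluster in a sample, after each batch's mean was taken off, were Lamtor4 (Pearson r = 0.70), Rac2 (0.66), Gpx1 (0.64) and Fis1 (0.63), out of 5801 genes. Among the other members, Tnfaip3 had r = 0.64 and Rel 0.45, while Nfkb1 had -0.13. Sums of 1 sample share a library, so these values describe the libraries and carry no p.

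The wider pathway was read from lists of kinases and adaptors, brakes, receptors, ligands, targets, subunits and the IkB family, 103 genes with the members. Of 82 tested genes besides the members, 7 were higher and 1 lower in aged than in young LSK cells (9.76%, against 4.1% of all genes), and in HSC-1-like cells 8 of 74 were higher and 2 lower (13.5%, against 9.29%). By list, in all LSK cells, 3 of 20 targets, 2 of 14 brakes, 3 of 6 genes of the IkB family (Nfkbiz and Bcl3 among them), 1 of 6 ligands and 0 of 28 kinases and adaptors were higher, and 1 of 13 receptors lower. No subunit or kinase gene passed there. Ptgs2, the inducible cyclooxygenase, was at 7.21, 13.0 and 25.3 CPM in the young and 53.7, 132 and 89.3 CPM in the aged HSC-1-like cells, without overlap. Its difference was 2.33 ± 0.23 there and 1.87 ± 0.26 in all LSK cells (edgeR, adjusted p = 0.00014 and 0.010). Tnfaip2, induced by tumor necrosis factor, was at 20.9, 33.5 and 50.9 CPM in the young and 138, 115 and 91.1 CPM in the aged HSC-1-like cells, a difference of 1.81 ± 0.25. Both stood above the young samples in each aged sample of either batch.

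Nfkbid, a further nuclear IkB gene, had 1.11 ± 0.22 in HSC-1-like and 1.04 ± 0.21 in all LSK cells. The brakes Zc3h12a, an RNase of inflammatory mRNAs, and Irak3, a kinase-like protein that holds back Toll-like receptor signals, had 0.86 ± 0.15 and 0.73 ± 0.14 in HSC-1-like cells and 0.95 ± 0.19 and 0.73 ± 0.16 in all LSK cells. Gadd45b (1.00 ± 0.15), Rela (0.59 ± 0.15) and Traf1 (0.66 ± 0.17) were also called in HSC-1-like cells. Traf1, an adaptor at tumor necrosis factor receptors, had 1.01 ± 0.15 with age in all LSK cells. It separated by batch like the subunits, but more widely, at 5.81 to 14.1 CPM in batch 1 and 150 to 336 CPM in batch 2. Il1b, the interleukin 1 ligand, had 3.05 ± 0.70 in all LSK cells on 1, 3 and 8 UMIs in the young and 6, 143 and 42 UMIs in the aged samples, most of them in aged replicate 2. Lower with age was Tnfrsf13c, a receptor of B cells, at 11.8, 11.3 and 9.15 CPM in the young and 6.04, 5.91 and 6.66 CPM in the aged samples (-0.79 ± 0.18, adjusted p = 0.040). No gene of the lists was called in LMPP-like cells or between CASIN and aged samples.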

How the data were processed

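The authors aligned the reads and counted UMIs with Cell Ranger 3.1.0 (mm10) and deposited, for each of the 9 libraries, a matrix of raw counts per gene and barcode. From these counts, the cells used had at most 10% mitochondrial UMIs, at most 6000 genes, 1000 to 40000 UMIs and a gene number within 0.4 (natural log) of a straight line on the UMI number, and the genes used were seen in at least 3 of these cells. Cells were integrated and clustered with Seurat 5.3.0 (resolution 0.4) on 1967 features that held none of the 103 pathway genes, taken from 2000, where the study's methods name 3000. Scrublet, run through scanpy 1.11.5, marked only 67 cells (0.42%), so it was taken as not having worked, and leaving out the 5% of cells with the highest scores was added as an alternative.

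UMIs were summed per sample over all LSK cells, over a cluster or over a gate, and tested in R 4.3.3 with edgeR 4.0.16 (TMM, filterByExpr, quasi-likelihood F test, standard error as the fold over the square root of F), with group and sequencing batch as terms and Benjamini-Hochberg adjustment over all genes tested at 0.05. Gates were compared with the sample as a block, and interactions with the gate, group and batch in 1 model. Within-batch values came from a model of group by batch. DESeq2 1.42.0, other scalings, filters, cell limits and thinning, and each sample left out in turn were alternatives. The script was tested on simulated data. Replicates were compared by chi-square and none agreed within sampling noise. Intervals and floors cover counting error only.

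The 10 genes and the lists were chosen with earlier results of these data known. Other genes named were those of the lists past the threshold in aged over young, at most 8 per comparison by p. Genes most like Nfkbia were named by Pearson's r, and 1 result of that rule is not reported here. The handling and cell type marker lists were taken beside them. The within-batch and interaction models and several alternatives were chosen after the data were seen. The genes' own positions are those of GRCm38, and promoter windows are RefSeq's of GRCm38.p6.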

Additional observations from a re-analysis of the deposited data

Results flagged for a closer look

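The aged over young difference of 3 genes differed between the sequencing batches by a test of the difference itself (edgeR, batch 2 minus batch 1, log2). In all LSK cells it was 1.12 for Nfkb1, 1.30 for Rel and 1.49 for Nfkbia, and in HSC-1-like cells 1.06 for Nfkb1, 1.88 for Rel and 1.16 for Nfkbia. In each batch 1 of the groups had a single sample.

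The aged over young difference also differed between the Flt3-gated and the Procr-gated cells, by 0.63 for Rel and by -1.13 for Bcl3. The difference between these gates in turn differed between the batches for 7 genes, by 0.43 for Nfkb2, -0.55 for Rel, 0.34 for Nfkbia, 0.95 for Nfkbiz, 1.59 for Tnfaip3, 0.80 for Bcl3 and 0.92 for Birc3. The value of Nfkb2 was past the threshold in only 2 of 15 alternatives, those of Tnfaip3 and Birc3 in all 15. Without CASIN replicate 3, Nfkbia (0.19), Bcl3 (0.74) and Rel (-0.43) missed it, and without aged replicate 1 Nfkbia (0.34), Rel (-0.38) and Nfkbiz (0.57). In DESeq2 Nfkbia (0.31) and Bcl3 (0.78) missed it.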

How the results depend on the processing

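Counts are those of the 10 genes called by edgeR, unless another tool is named, and the cause of a change was not tested. The number called over all genes is given below for some settings only. A change in these counts is therefore no result about the 10 genes. Aged over young in all LSK cells (2 called) gave 0 with no batch term, 0 with only the 2 groups compared, 1 with a mitochondrial limit of 5%, 1 in thinned cells, 1 without the highest doublet scores, 4 within batch 2 and 0 to 4 with a sample left out. In HSC-1-like cells (2) it gave 7 with no filter on low counts, 0 with no batch term, 4 within batch 2 and 2 to 5 with a sample left out, and in LMPP-like cells (0) 1 with DESeq2, 5 with no filter, 3 within batch 2 and 0 to 1 with a sample left out. CASIN over aged (0) gave 1 with no filter in HSC-1-like and in LMPP-like cells and 1 within batch 2 in HSC-1-like cells. CASIN over young in all LSK cells (0) gave 2 with DESeq2, 2 with no filter, 2 with only the 2 groups compared, 1 in thinned cells, 1 with a limit of 20%, 2 within batch 1 and 0 to 2 with a sample left out. In HSC-1-like cells (2) it gave 0 with no batch term and 1 within batch 2, and in LMPP-like cells (0) 1 with no filter. The difference of the age effect between batches (3 in all LSK cells) gave 6 with no filter and 1 to 4 with a sample left out, in HSC-1-like cells (3) 1 in thinned cells, and in LMPP-like cells (0) 1 with DESeq2 and 3 with no filter. That of the CASIN effect (0) gave 4 with DESeq2, 4 with no filter and 1 in thinned cells in all LSK cells, and 1 with no filter in HSC-1-like cells. The gate contrast (4) gave 8 within batch 2, its difference with age (2) 1 with DESeq2 and 1 to 3 with a sample left out, and its difference between batches (7) 4 with DESeq2 and 3 to 7 with a sample left out. Where the main fit or the alternative called the gene, signs turned for Nfkbia between the batches in LMPP-like cells without young replicate 3 (0.31, range -0.31 to 0.31 with a sample left out). The same held for Tnfaip3 between the gates within batch 1 (-0.058). Signs also turned in 171 cases where neither fit called the gene, within-batch fits not counted. Nfkbia between the batches in all LSK cells at the 5% mitochondrial limit (0.11) was among them.

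Over all genes, aged over young in all LSK cells had 560 calls, 1135 with DESeq2, 1048 with no filter, 0 with no batch term, 93 with only the 2 groups compared and 323 and 957 with limits of 5% and 20%. In HSC-1-like cells it had 1092 calls, 1837 with no filter, 9 with no batch term and 529 in thinned cells.

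Once group and batch were taken off, deviations of same-numbered samples had r from -0.48 to 0.27. Taking off both terms itself sets samples of the same batch against each other. Young replicate 2 and aged replicate 1, of different number, had -0.51. Whether same-numbered samples are paired therefore cannot be told from these values. With the replicate block, aged over young had 1 of the 10 genes called in all LSK cells (80 of all genes), Bcl3 being lost at 0.85, and 1 in LMPP-like cells, Cd83 being gained at 1.53. The block changed no other call of the 10 genes.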
